A study of Homo sapiens with 11 samples.

Results

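The genes described here are the mitochondrial ribosomal RNAs RNR1 and RNR2 and 5 nuclear genes for proteins that transcribe or copy mitochondrial DNA, namely TFAM, TFB1M, TFB2M, POLRMT and POLG. They are 7 of the 19990 genes in the deposited count table, and they were chosen from the same counts by day that are described below, with earlier readings of them known. Their differences between days are therefore given as a description, with intervals and with no p-value for any member. How many members passed the threshold used for all genes is printed once, beside the share of all genes that did, and nothing is read from it. Tests are given for other genes of the pathway, whose lists were also chosen with earlier results of these data known. Most genes named from these lists were picked as the largest changes past the threshold, so their p-values carry that choice. The samples were human cardiomyocytes made from WTC11, an established induced pluripotent stem cell line, at passage 63. All wells had the same history, which was induction with CHIR99021 (an inhibitor of the kinase GSK3), then IWP2 (an inhibitor of WNT secretion), first in B27 supplement without insulin and later in B27 with insulin, the medium in which they stayed. Bulk RNA was collected at Day 30 (4 wells), Day 60 (3 wells) and Day 113 (4 wells), and poly(A)-selected RNA was sequenced to follow maturation in long culture. The wells are parallel cultures of 1 line in 1 described differentiation, cells were not sorted before collection, and cardiomyocyte purity was checked by flow cytometry at Day 16 in other wells. p-values below measure only the spread between wells, and day of culture and day of collection cannot be told apart.

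Human mitochondria keep a small circular genome whose heavy-strand transcripts run through the ribosomal RNAs RNR1 (12S) and RNR2 (16S), with tRNAs between them that mark where the long RNA is cut. TFAM packages the DNA and, with TFB2M, brings the RNA polymerase POLRMT to the promoters, while TFB1M methylates adenines near the 3′ end of 12S rRNA and POLG is the catalytic subunit of the DNA polymerase. Heart muscle is known for a high mitochondrial content. Mitochondrial rRNAs carry short A tails, through which a poly(A)-selected library can sample them. How they entered these libraries was not tested. The values below are therefore levels in poly(A)-selected RNA and not the amount of mitochondrial ribosomes.

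RNR1 lies at chrM:648-1601 and RNR2 at chrM:1671-3229, both on the plus strand (GRCh38, GENCODE 29). The first sequence below is the 3′ end of RNR1 at chrM:1557-1601, shown because TFB1M is known to act there. The tip of its hairpin is in capitals. Counted outward from the capitals to the first position that does not pair, there were 9 base pairs, of which 7 were Watson-Crick and 2 were G with U. The first and last capitals, T and A, could pair with each other as well and are not in this count. The second is TRNL1, the leucine tRNA gene that starts on the base after RNR2, at chrM:3230-3304 on the plus strand. Its capitals mark the stretch known as the binding site of the termination factor MTERF1.
RNR1 3′ end: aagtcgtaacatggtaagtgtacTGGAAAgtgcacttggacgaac
TRNL1: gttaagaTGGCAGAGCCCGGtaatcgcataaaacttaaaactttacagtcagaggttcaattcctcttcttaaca

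The nuclear genome holds copies of RNR2 that could share its reads. Bases 31 to 60 of RNR2, at chrM:1701-1730 on the plus strand, are set beside the aligned stretch of the copy MTRNR2L8, at chr11:10509129-10509158 on the minus strand (GRCh38, GENCODE 29), with the letters that differ in capitals.
RNR2: tactaccAGacaAcCttaGccaaaCcattt
MTRNR2L8: tactaccGAacaGcTttaAccaaaTcattt
These stretches differed at 6 of 30 bases. Over 1302 bases aligned without gaps, 93.01% were the same, and the longest run in common was 88 bases. None of the 1154 stretches of 150 bases of MTRNR2L8, the read length, was found unchanged in RNR2, so a full-length read without error can be assigned to RNR2 or to this copy. The more abundant copy MTRNR2L2 has 87 exon bases in GENCODE 29, shorter than a read, and was not compared in this way.

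The promoters of 4 of the 5 nuclear members held CGCNTGCGC, a form of the site of nuclear respiratory factor 1 (NRF1), on either strand, within 250 bases before to 50 after the RefSeq gene start (GRCh38.p14). The stretches are shown because these genes are described together; each is read 5′ to 3′ on the strand of its gene, with the motif in capitals. They lie at chr10:58385338-58385366 on the plus strand for TFAM, chr6:155314598-155314626 on the minus strand for TFB1M, chr1:246566259-246566287 on the minus strand for TFB2M and chr19:633543-633571 on the minus strand for POLRMT.
TFAM: cgctctcccgCGCCTGCGCcaattccgcc
TFB1M: gcaggacttaGCGCATGCGctctcagcac
TFB2M: ctccgctgttCGCATGCGCaggctctagt
POLRMT: ggcggcgcggGCGCATGCGcaggcgcggg
This motif was in 7.52% of 35116 promoter windows of the same length. TFB1M held it at 2 overlapping positions, since the motif can be read on both strands, and POLRMT at 3. The core of ETS factors, CCGGAAG, searched on both strands, was in the windows of TFB1M and POLRMT and in 10.3% of all windows. The POLG window held neither motif. A match describes letters only and is not a site in use.

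Library totals ranged from 24.1 M to 34.5 M counts. Levels are given as CPM (counts per 1000000 counts of the library) after scaling by the trimmed mean of M values. All 10 cardiomyocyte markers were in the table, and their summed CPM was 31142 to 42807 at Day 30, 38696 to 43775 at Day 60 and 33981 to 39074 at Day 113, so the labelled cell type was carried by its markers at each day. Markers of other cells moved with the days. The sum of 6 fibroblast markers was 2556 to 5717 CPM, then 1662 to 2756, then 4196 to 10125, that of 5 endothelial markers was 52.5 to 75.0, then 37.0 to 60.3, then 179 to 734, and that of 6 endoderm and epithelium markers was 467 to 1350, then 53.4 to 61.7, then 12.4 to 52.5, with no marker of these lists at 0 in all wells of a day. Of 4 smooth muscle markers, 3 were in the table, with sums of 446 to 685, 522 to 675 and 702 to 1097 CPM. Of 3 pluripotency markers only LIN28A was in the table, at 2.80 to 5.14 CPM, then at most 0.221, then 0 in every Day 113 well. In bulk RNA, fewer cells of a type and less RNA per cell cannot be told apart.

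RNR2, the large-subunit rRNA, was 19659, 20721, 19529 and 20686 CPM in the Day 30 wells, 31158, 26610 and 35808 CPM at Day 60 and 20215, 22014, 17822 and 21751 CPM at Day 113. Every Day 60 well lay above every well of the other days, and the Day 113 wells lay around the Day 30 wells. The log2 change was 0.63 ± 0.12 (SE) from Day 30 to Day 60, a 1.55-fold higher level (95% interval 1.30 to 1.84). From Day 60 to Day 113 the log2 change was -0.61 ± 0.12, or 0.656-fold (0.550 to 0.781). Between the end points, Day 113 against Day 30, it was 0.02 ± 0.11, or 1.02-fold (0.862 to 1.20). These comparisons share wells, so the rise and the return are not independent readings, both resting on the 3 Day 60 wells. The second interval minus the first differed by -1.24 ± 0.21 on the log2 scale.

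RNR1, the small-subunit rRNA, was 2520, 2563, 2172 and 2351 CPM in the Day 30 wells, 2870, 3606 and 4121 CPM at Day 60 and 2500, 3742, 2254 and 2921 CPM at Day 113. The Day 60 wells were all above the Day 30 wells, but the lowest of them was below 2 of the Day 113 wells. The log2 change was 0.56 ± 0.16 from Day 30 to Day 60, -0.31 ± 0.16 from Day 60 to Day 113 and 0.25 ± 0.15 from Day 30 to Day 113. Day 113 replicate 2, at 3742 CPM, was the highest well of its day, and without it the last of these changes was 0.09 and the change from Day 60 was -0.46. The second interval minus the first was -0.86 ± 0.28.

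**Figure D1:**
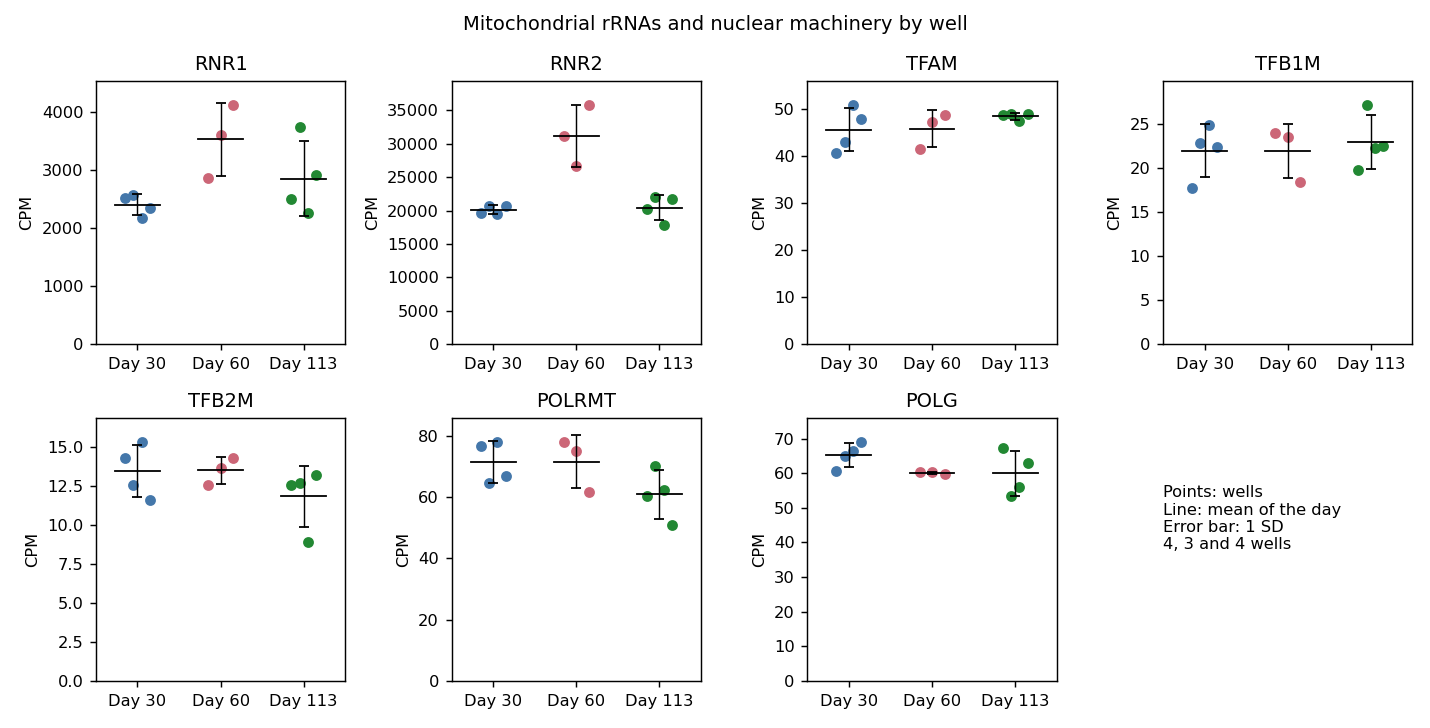
CPM of each of the 7 genes (vertical axes, each starting at 0) in every well by day of culture (horizontal axes), with the mean of the day as a line and 1 SD as the error bar. RNR2 stands at 26610 to 35808 CPM in the Day 60 wells and at most at 22014 CPM elsewhere, while the nuclear genes have wells of all days at similar heights.

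Together the rRNAs made up 2.24% ± 0.053 of all counts at Day 30 (SD, n = 4), 3.45% ± 0.50 at Day 60 (n = 3) and 2.35% ± 0.24 at Day 113 (n = 4). Their ratio varied between wells of a day. RNR2 divided by RNR1 was 7.80, 8.09, 8.99 and 8.80 in the Day 30 wells, 10.9, 7.38 and 8.69 at Day 60, and 8.09, 5.88, 7.91 and 7.45 at Day 113. The ranges of the days overlapped, and the lowest ratio was in Day 113 replicate 2, the well with the most RNR1 of its day. Per base of the transcripts, RNR2 exceeded RNR1 by 4.77 to 5.50 times at Day 30, 4.52 to 6.64 times at Day 60 and 3.60 to 4.95 times at Day 113. The rRNAs are cut from transcripts of the same strand, and in these libraries the signal of RNR2 per base was above that of RNR1 in all 11 wells. Over the 11 libraries, which share their scaling, RNR1 and RNR2 had a Pearson correlation of 0.757 on log2(CPM + 0.5).

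**Figure D2:**
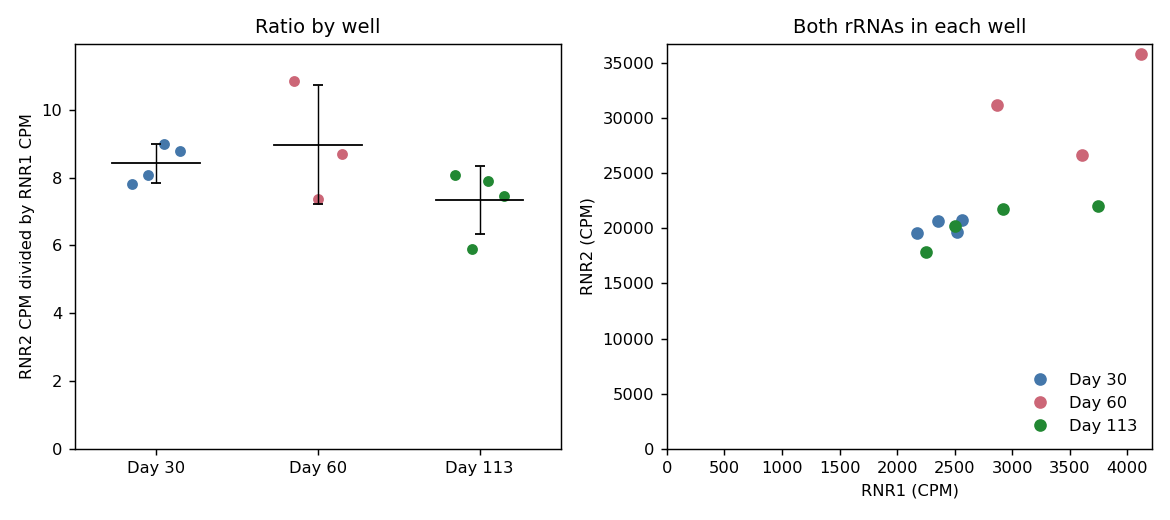
Left, RNR2 CPM divided by RNR1 CPM in each well by day, with mean and 1 SD; right, RNR2 against RNR1 CPM in the same wells. The ratio lies between 5.88 and 10.9, with the days overlapping, and the 3 Day 60 wells are the highest in RNR2.

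TFAM, which coats mitochondrial DNA and bends it at promoters, was 40.8, 43.1, 50.9 and 47.8 CPM at Day 30, 41.4, 47.4 and 48.8 CPM at Day 60 and 48.8, 49.0, 47.4 and 48.9 CPM at Day 113. The days overlapped, and the log2 change was 0.01 ± 0.10 to Day 60 and 0.09 ± 0.10 over the whole course. The 95% interval of the first was 0.862-fold to 1.17-fold. The 4 Day 113 wells had a coefficient of variation of 1.56%, below the 2.61% that counting error alone gives at this depth. TFAM spans chr10:58385022-58399221 on the plus strand (GRCh38, GENCODE 29), and no other gene overlapped its exons.

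TFB2M, the partner of POLRMT that opens the promoter, was the lowest nuclear member, at 14.3, 12.6, 15.3 and 11.6 CPM at Day 30, 12.6, 13.6 and 14.3 CPM at Day 60 and 12.5, 12.7, 8.93 and 13.2 CPM at Day 113. The days overlapped, with Day 113 replicate 3 below all other wells. The log2 change was 0.00 ± 0.17 to Day 60 and -0.19 ± 0.16 from Day 30 to Day 113. The gene lies at chr1:246540560-246566324 on the minus strand. Counting error was 4.97% to 5.32% of its level, the largest of the 7 members.

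POLRMT, the mitochondrial RNA polymerase itself, was 76.6, 64.4, 77.8 and 66.8 CPM at Day 30, 78.0, 74.9 and 61.6 CPM at Day 60 and 60.2, 70.0, 62.2 and 50.8 CPM at Day 113. Day 113 had the lowest well and its mean was the lowest of the days, but the ranges overlapped. The log2 change was 0.00 ± 0.12 to Day 60, -0.23 ± 0.12 from Day 60 to Day 113 and -0.23 ± 0.11 from Day 30 to Day 113, where the 95% interval ran from 0.721-fold to 1.01-fold. Without Day 113 replicate 2 the change from Day 30 to Day 113 was -0.31. POLRMT lies at chr19:617224-633604 on the minus strand.

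TFB1M, the methyltransferase of 12S rRNA, was 17.8, 22.8, 24.9 and 22.4 CPM at Day 30, 24.0, 23.5 and 18.5 CPM at Day 60 and 19.8, 27.2, 22.3 and 22.5 CPM at Day 113. The ranges of the 3 days overlapped almost fully, and the log2 changes were -0.00 ± 0.15, 0.06 ± 0.15 and 0.06 ± 0.14 for the pairs of days in the same order as for RNR2. TFB2M and TFB1M derive from a common ancestor, and TFB2M divided by TFB1M was 0.517 to 0.804 at Day 30, 0.524 to 0.773 at Day 60 and 0.401 to 0.632 at Day 113, so the days overlapped in this ratio too. TFB1M spans chr6:155257509-155314493 on the minus strand, and its exons overlap those of TIAM2, with which reads could be shared because the strand setting of the counting is not given in the sources used here.

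POLG, the catalytic subunit of the mitochondrial DNA polymerase, was 60.7, 65.0, 66.3 and 69.1 CPM at Day 30, 60.3, 60.3 and 59.9 CPM at Day 60 and 67.3, 53.3, 56.1 and 62.9 CPM at Day 113. The 3 Day 60 wells were all below the Day 30 wells, by a narrow margin, and 2 of the Day 113 wells lay within the range of the Day 30 wells and 2 below it. The log2 change was -0.12 ± 0.10 to Day 60, -0.00 ± 0.10 from there to Day 113 and -0.12 ± 0.09 over the course. The Day 60 wells had a coefficient of variation of 0.369%, where counting error alone gives 2.35%. POLG lies at chr15:89305198-89334861 on the minus strand, and its exons overlap those of FANCI.

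**Figure D3:**
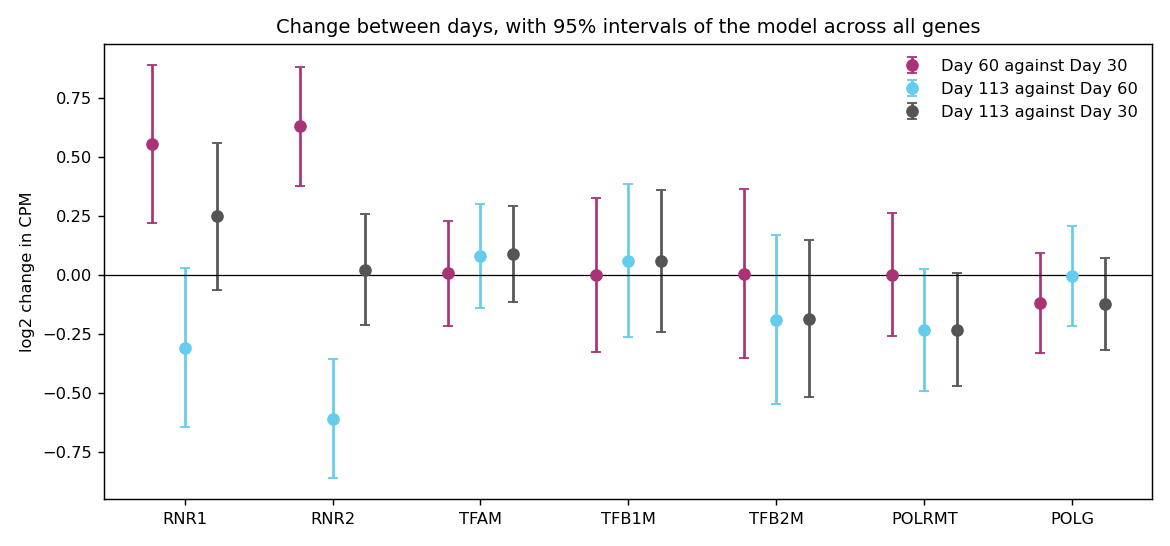
Log2 change in CPM (vertical axis) of each gene (horizontal axis) for the 3 pairs of days, with 95% intervals from the model across all genes. RNR2 is at 0.63 for Day 60 against Day 30 and at -0.61 for Day 113 against Day 60, and the nuclear genes lie between -0.23 and 0.09.

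Read against the whole table, 2 of the 7 members, RNR1 and RNR2, passed an adjusted p of 0.05 from Day 30 to Day 60 (edgeR quasi-likelihood test with Benjamini-Hochberg adjustment), where 10.3% of all genes did. From Day 60 to Day 113 it was 1 member, RNR2, against 24.0% of all genes, and from Day 30 to Day 113 it was 0, against 34.5%. At the end points DESeq2 and limma-voom also called 0 members, beside 7461 of 19990 and 7039 of 19952 genes. The difference between the intervals passed for RNR2 with edgeR (9.34% of all genes) and for RNR1 and RNR2 with DESeq2 (2635 of 19990 genes). Wells of the days did not overlap for 3 members from Day 30 to Day 60 (RNR1, RNR2 and POLG; 24.8% of all genes), for 1 from Day 60 to Day 113 (RNR2; 30.6%) and for 0 from Day 30 to Day 113 (35.1%). Without Day 113 replicate 2 the edgeR count was 2 from Day 60 to Day 113 (with RNR1), beside 4735 of 19817 genes. From Day 30 to Day 113 it was then 1 (POLRMT), beside 6732 of 19817 genes. From Day 30 to Day 60 it was 1 (RNR2) without any 1 of the Day 30 wells or without Day 60 replicate 2 or 3. In those fits 1220 to 1754 of all genes were called. The change of RNR1 to Day 60 was 0.45 to 0.71 on the log2 scale over the wells left out. Since the members were chosen from these contrasts, nothing is read from these counts.

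Set against each other per kilobase of exon, the members fell into 2 ranges. RNR2 was at 12924 ± 412 CPM per kb at Day 30 (SD, n = 4), 20008 ± 2950 at Day 60 (n = 3) and 13118 ± 1234 at Day 113 (n = 4), and RNR1 followed at 2517 ± 187, 3702 ± 659 and 2992 ± 684 CPM per kb. The highest nuclear member per kb was POLRMT, at 13.9 ± 1.32, 14.0 ± 1.70 and 11.9 ± 1.54. POLG was next with 10.9 ± 0.583, 10.1 ± 0.037 and 10.0 ± 1.07 CPM per kb, and at Day 113 the wells of the 2 genes overlapped. TFAM (8.14 ± 0.814 at Day 30), TFB1M (8.03 ± 1.11) and TFB2M (7.27 ± 0.912) overlapped at Day 30 and at Day 60. At Day 113 the TFB2M wells (6.40 ± 1.06) lay below those of TFAM (8.65 ± 0.135) and of TFB1M (8.38 ± 1.12), which overlapped each other. The lengths are all exon bases of each gene in GENCODE 29, so a gene with a long rarely used exon is placed too low.

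The nuclear members had low or negative correlations with the rRNAs from well to well. Pearson correlations of RNR2 with the 5 nuclear members over the 11 libraries ranged from -0.19 for POLG to 0.36 for TFB2M. Those of RNR1 ranged from -0.53 for POLG to 0.32 for TFB2M. Among 11945 genes with a mean of at least 5 CPM, those most like RNR2 were CDK1 (r = 0.947), the kinase of mitotic entry, HADH (0.930), an enzyme of fatty acid oxidation, HMGB2 (0.927), a chromatin protein, REXO5 (0.926) and HSF2 (0.924). Those most like TFAM were METAP1D (0.890), a mitochondrial methionine aminopeptidase, ZNF112 (0.876), C3orf38 (0.852), PARG (0.847) and DHX57 (0.839). The highest of very many correlations over 11 wells is a description only.

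Other RNAs of the mitochondrial genome were read beside the rRNAs. Of the 22 mitochondrial tRNA genes, 20 were in the table, and their summed level was 4718 ± 422 CPM at Day 30, 6323 ± 371 at Day 60 and 5594 ± 1186 at Day 113. From Day 30 to Day 60, 1 passed the test upward (TRNE) and 0 downward, from Day 60 to Day 113, 1 passed upward and 5 downward, and from Day 30 to Day 113, 3 passed upward and 6 downward. The shares called were 5.00%, 30.0% and 45.0%, beside 10.3%, 24.0% and 34.5% of all genes. The median log2 change of the 20 was 0.01, -0.14 and 0.05 in these pairs, beside -0.01, 0.00 and -0.02 over all genes. Fragments this short can hold reads of neighbouring RNAs, and with the strand setting not given, reads of genes on opposite strands cannot be told apart. The 13 mitochondrial messenger RNAs are not analysed here.

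TRNL1, the tRNA gene directly after RNR2 whose sequence is shown above, was 78.2, 68.9, 59.3 and 62.6 CPM at Day 30, 65.9, 49.5 and 51.1 CPM at Day 60 and 31.0, 26.4, 23.8 and 34.2 CPM at Day 113. All Day 113 wells lay below all others. It fell by 0.95 on the log2 scale from Day 60 to Day 113 (SE 0.14, edgeR adjusted p = 0.000257) and fell by 1.22 from Day 30 to Day 113 (SE 0.13, edgeR adjusted p = 5.1e-06), while from Day 30 to Day 60, when RNR2 was higher, its change was -0.28 ± 0.14 (edgeR adjusted p = 0.268). Per 1000 RNR2 counts there were 3.03 to 3.98 TRNL1 counts at Day 30, 1.43 to 2.12 at Day 60 and 1.20 to 1.57 at Day 113. The Day 30 wells had the highest ratio without overlap, and the other days overlapped.

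TRNE, the glutamate tRNA encoded on the opposite strand, was 518, 483, 396 and 450 CPM at Day 30, 939, 773 and 737 CPM at Day 60 and 1047, 1422, 837 and 1160 CPM at Day 113. It rose by 0.82 ± 0.15 on the log2 scale from Day 30 to Day 60 (edgeR adjusted p = 0.00263) and by 1.27 ± 0.14 from Day 30 to Day 113 (edgeR adjusted p = 6.4e-06), and all wells of both later days lay above the Day 30 wells. From Day 60 to Day 113 the change was 0.45 ± 0.15 (edgeR adjusted p = 0.0437), a call lost without any 1 of 7 wells (Day 30 replicates 1, 2 and 4, Day 60 replicates 2 and 3, Day 113 replicates 2 and 4), where the change was 0.31 to 0.45, and lost with RLE scaling, upper-quartile scaling or only the days compared. TRNP, the proline tRNA, also on the opposite strand, was 319 CPM at Day 30 and 376 CPM at Day 60 on average (log2 change 0.24 ± 0.16, edgeR adjusted p = 0.426) and fell by 0.93 from Day 60 to Day 113 (SE 0.16, edgeR adjusted p = 0.000662), to 198 CPM.

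The most abundant tRNA gene was TRNS1, at 2865 ± 330, 3845 ± 265 and 3174 ± 810 CPM at the 3 days, a mean highest at Day 60 as for RNR2. It made up most of the summed tRNA level given above, and the limits on neighbouring RNAs and strand apply to it. TRNS1 had no call in any pair (log2 change 0.42 ± 0.16 to Day 60, edgeR adjusted p = 0.123). TRNC (367, 466 and 417 CPM) had no call either, nor had TRNG, TRNH, TRNK, TRNL2, TRNT and TRNW, which averaged 2.75 to 38.0 CPM. TRND, at 9.75, 8.71 and 3.25 CPM, fell by 1.42 ± 0.21 on the log2 scale from Day 60 to Day 113 (edgeR adjusted p = 0.000187), and TRNR, at 32.7, 32.1 and 22.3 CPM, fell by 0.53 ± 0.14 (edgeR adjusted p = 0.0109). Means at Day 60 were not above those at Day 30 for TRNL1, TRND, TRNR, TRNH, TRNK, TRNL2, TRNM, TRNS2, TRNV and TRNW. They were above for the other tRNA genes in the table. Among these were TRNT (29.5 and 37.7 CPM), TRNI (6.15 and 8.93 CPM) and TRNG (34.7 and 36.2 CPM), which had no call between these days. TRNM fell by 0.92 ± 0.27 and TRNI rose by 0.84 ± 0.22 from Day 30 to Day 113 (edgeR adjusted p = 0.0141 and 0.00661). TRNN rose by 0.35 ± 0.12 over these days (edgeR adjusted p = 0.0298), a call lost without Day 30 replicate 2 or 4 or Day 113 replicate 2 (0.23 to 0.35). TRNY fell by 0.44 ± 0.15 from Day 60 to Day 113 (edgeR adjusted p = 0.0432), a call lost with library totals, with only the days compared, and without any 1 of 7 wells (Day 30 replicates 1, 3 and 4, Day 60 replicates 1 and 3, Day 113 replicates 2 and 3; -0.44 to -0.34).

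RNAs from outside the mitochondrial genome were also read beside RNR2. The nuclear copy MTRNR2L2 averaged 13.7 ± 2.93 CPM at Day 30, 29.6 ± 11.4 at Day 60 and 19.9 ± 8.13 at Day 113, and it rose by 1.11 ± 0.29 on the log2 scale to Day 60 (edgeR adjusted p = 0.0207). That call was lost without Day 30 replicate 1 or 2 or Day 60 replicate 3 (log2 change 0.78 to 1.11). From Day 60 to Day 113 the change of MTRNR2L2 was -0.58 ± 0.29 (edgeR adjusted p = 0.161), and the wells of these days overlapped. Without Day 113 replicate 4 that change was -0.85 and passed. RNR2 counts divided by MTRNR2L2 counts were 1177 to 2142 at Day 30, 838 to 1395 at Day 60 and 727 to 1439 at Day 113. Reads of the copy and of RNR2 may have been exchanged in counting. The copy MTRNR2L8 was at 1.11 ± 0.643, 2.28 ± 0.745 and 1.29 ± 0.461 CPM, with no call in any pair.

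RN7SK, a nuclear RNA without a poly(A) tail, was 2.25, 1.50, 2.93 and 2.65 CPM at Day 30, 3.16, 10.5 and 14.8 CPM at Day 60 and 8.77, 15.3, 11.4 and 12.2 CPM at Day 113. It rose by 2.03 ± 0.39 on the log2 scale to Day 60 (edgeR adjusted p = 0.00316) and by 2.35 ± 0.37 to Day 113 against Day 30 (edgeR adjusted p = 0.000152), with all Day 113 wells above all Day 30 wells. RNA45SN4, a precursor of the cytosolic rRNAs, was at 6.38 ± 1.67, 9.26 ± 5.00 and 10.7 ± 1.61 CPM with no call in any pair. Of 22 listed RNAs without a poly(A) tail, 7 were in the table, and their sum was 11.6 ± 3.07 CPM, 22.3 ± 12.4 and 28.6 ± 5.84 at the 3 days. In the Day 60 wells this sum ranged from 8.23 to 31.4 CPM. The fibroblast marker sum was lowest at Day 60, when RNR2 was highest, as given above. The part of tail capture and of other cells in the level of RNR2 was not tested.

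**Figure D4:**
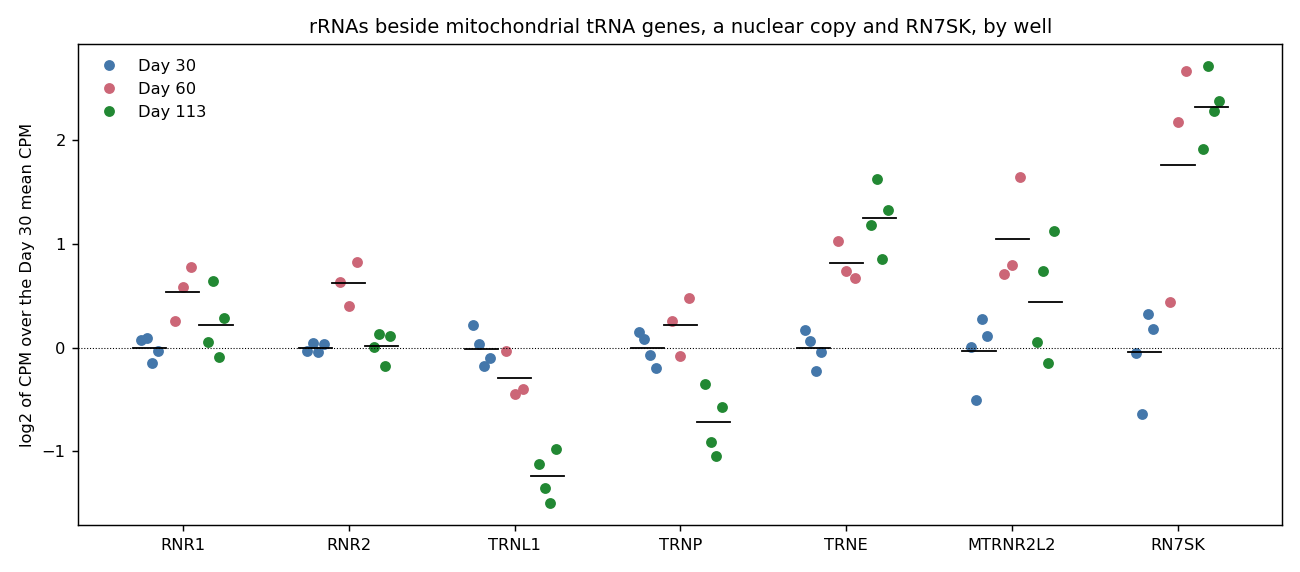
Log2 of CPM over the Day 30 mean CPM (vertical axis) for the rRNAs, 3 mitochondrial tRNA genes, the nuclear copy MTRNR2L2 and RN7SK (horizontal axis), with points for wells coloured by day and lines for the mean of the log2 values. RNR2 is high at Day 60 only, TRNL1 is lowest at Day 113 (23.8 to 34.2 CPM), and TRNE (837 to 1422 CPM) and RN7SK are highest on average at Day 113.

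The wider machinery around the members was followed in 5 lists of 82 genes, of which 79 were in the table. From Day 30 to Day 60, 0 passed upward and 3 downward, which is 3.80% of the lists beside 10.3% of all genes. From Day 60 to Day 113, 13 passed upward and 8 downward (26.6% beside 24.0%), and from Day 30 to Day 113, 18 upward and 10 downward (35.4% beside 34.5%). The median log2 change was 0.01, 0.07 and 0.03 in these pairs, beside -0.01, 0.00 and -0.02 over all genes. The counts at Day 60 rest on few genes, and leaving out a well gave 0 (Day 60 replicate 2) to 6 (Day 113 replicate 2) calls there, 10 (Day 60 replicate 3) to 20 from Day 60 to Day 113 and 18 (Day 30 replicate 1) to 31 from Day 30 to Day 113. Other settings ended single calls given below: upper-quartile scaling that of TWNK and NSUN4 at Day 60 and of TEFM and DGUOK from Day 60 to Day 113, only the days compared that of POLG2, DGUOK and PTCD2, library totals that of PTCD2, and RLE scaling, totals without the rRNAs, limma-voom and robust dispersions that of TWNK at Day 60.

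Among 7 measured factors of transcript elongation and termination, 0 passed from Day 30 to Day 60, 1 rose from Day 60 to Day 113 and 3 rose from Day 30 to Day 113, with none lower. These are 0.00%, 14.3% and 42.9% of the list, beside 10.3%, 24.0% and 34.5% of all genes. TEFM, which keeps POLRMT on its template, was 6.97 ± 1.23 CPM at Day 30, 6.75 ± 1.06 at Day 60 and 10.8 ± 1.90 at Day 113. It rose by 0.67 ± 0.21 on the log2 scale from Day 60 (edgeR adjusted p = 0.0305) and by 0.63 ± 0.20 from Day 30 (edgeR adjusted p = 0.0201). The first call was lost without Day 60 replicate 1 or 2 or Day 113 replicate 2 or 4 (0.56 to 0.67), and the second without Day 30 replicate 1 or Day 113 replicate 2 (0.51 in both). MTERF3 is known as a repressor of mitochondrial transcription. It was 10.6 ± 0.458 CPM at Day 30, 14.7 ± 1.92 at Day 60 and 16.0 ± 2.09 at Day 113. All Day 60 wells (at least 12.5 CPM) lay above all Day 30 wells (at most 11.3 CPM), with no call between these days. MTERF3 rose by 0.59 ± 0.14 from Day 30 to Day 113 (edgeR adjusted p = 0.00427). MTERF1, the factor whose site is in capitals in TRNL1, was named after its values were seen, and it rose by 0.56 ± 0.17 over the same days (edgeR adjusted p = 0.0156).

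Of 18 genes for copying mitochondrial DNA and supplying its nucleotides, where POLG acts, 2 fell from Day 30 to Day 60, 2 rose and 1 fell from Day 60 to Day 113, and 2 rose and 3 fell from Day 30 to Day 113. Their shares were 11.1%, 16.7% and 27.8%, beside 10.3%, 24.0% and 34.5% of all genes. TWNK, the helicase of the fork, was 8.57 ± 1.33 CPM at Day 30, 5.35 ± 0.692 at Day 60 and 5.61 ± 0.569 at Day 113, with log2 changes of -0.68 ± 0.21 to Day 60 (edgeR adjusted p = 0.0481) and -0.61 ± 0.19 to Day 113 (edgeR adjusted p = 0.0198). The first call was lost without any 1 of the Day 30 or Day 60 wells or Day 113 replicates 3 or 4 (-0.76 to -0.56), and the second without Day 30 replicate 1 or 4 or Day 113 replicate 3 (-0.55 to -0.54). POLG2, the accessory subunit that binds POLG, was 11.2 ± 0.269, 12.0 ± 0.487 and 8.60 ± 1.04 CPM, and it fell by 0.48 ± 0.15 on the log2 scale from Day 60 to Day 113 (edgeR adjusted p = 0.0337). That call was lost without any 1 of the Day 60 wells or Day 113 replicates 1 or 4 (-0.52 to -0.41). The gene for the catalytic subunit, POLG, had a change of -0.00 ± 0.10 over the same days.

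In the same list EXOG, a mitochondrial nuclease, rose from 16.7 ± 2.13 CPM at Day 30 and 17.7 ± 4.26 at Day 60 to 29.6 ± 3.73 at Day 113, by 0.83 ± 0.15 from Day 30 (edgeR adjusted p = 0.000626) and 0.74 ± 0.17 from Day 60 (edgeR adjusted p = 0.00506). MGME1, a nuclease of mitochondrial DNA ends, fell from 27.5 ± 1.90 to 19.2 ± 1.19 CPM between Day 30 and Day 113, with a log2 change of -0.52 ± 0.12 (edgeR adjusted p = 0.00363). RRM2B, a subunit of ribonucleotide reductase, was at 46.9 ± 4.32 and 33.8 ± 4.34 CPM at Day 30 and Day 60 (-0.47 ± 0.12, edgeR adjusted p = 0.022), a call lost without Day 30 replicate 2 or 3 or Day 60 replicate 1 or 2 (-0.46 to -0.36). DGUOK, a deoxynucleoside kinase, was at 16.7 ± 3.58 and 23.2 ± 1.94 CPM at Day 60 and Day 113 (0.48 ± 0.16, edgeR adjusted p = 0.0443), and its call was lost without any 1 of 8 wells (Day 30 replicates 1, 2 and 4, Day 60 replicates 1 and 3, Day 113 replicates 1, 2 and 3; 0.34 to 0.49). SUCLA2, a subunit of succinyl-CoA ligase, was at 94.6 ± 6.54, 113 ± 6.21 and 118 ± 12.8 CPM at the 3 days. Its change from Day 30 to Day 113 was 0.31 ± 0.09 (edgeR adjusted p = 0.0168). That call was lost without Day 30 replicate 3 or Day 113 replicate 4 (0.26 to 0.29).

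Of 20 measured genes that cut, stabilise or degrade mitochondrial RNA, 0 passed from Day 30 to Day 60, 5 rose and 1 fell from Day 60 to Day 113, and 8 rose and 1 fell from Day 30 to Day 113. Their shares were 0.00%, 30.0% and 45.0%, beside 10.3%, 24.0% and 34.5% of all genes. TRMT10C and HSD17B10 belong to the RNase P that frees the 5′ ends of tRNAs, and so the rRNAs between them. TRMT10C rose from 17.0 ± 2.50 CPM at Day 30 to 27.8 ± 2.71 at Day 113, by 0.71 ± 0.13 on the log2 scale (edgeR adjusted p = 0.000596). HSD17B10 rose from 27.7 ± 4.38 CPM at Day 60 to 49.7 ± 11.1 at Day 113, by 0.84 ± 0.17 (edgeR adjusted p = 0.00201). FASTKD5, needed for RNA ends that no tRNA marks, was at 13.2 ± 3.52, 11.5 ± 2.70 and 20.2 ± 1.59 CPM, with changes of 0.81 ± 0.22 from Day 60 (edgeR adjusted p = 0.0123) and 0.61 ± 0.20 from Day 30 (edgeR adjusted p = 0.0249). The first of its calls was lost without Day 60 replicate 3 (0.63) and the second without Day 30 replicate 1 or 2 or Day 113 replicate 2 or 4 (0.44 to 0.61). PTCD2, a pentatricopeptide repeat protein, was at 25.0 ± 2.64, 25.7 ± 1.83 and 19.8 ± 1.64 CPM, with log2 changes of -0.38 ± 0.13 from Day 60 to Day 113 (edgeR adjusted p = 0.0413) and -0.34 ± 0.12 from Day 30 (edgeR adjusted p = 0.035). Its calls were lost without 5 of the 11 wells each, Day 30 replicate 1, Day 60 replicate 1 and Day 113 replicates 1 and 2 in both pairs, with Day 60 replicate 3 in the first (-0.38 to -0.33) and Day 30 replicate 3 in the second (-0.32 to -0.28).

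Of 22 genes that modify the mitochondrial rRNAs or build the ribosome on them, 1 fell from Day 30 to Day 60, 5 rose and 2 fell from Day 60 to Day 113, and 5 rose and 3 fell from Day 30 to Day 113. Their shares were 4.55%, 31.8% and 36.4%, beside 10.3%, 24.0% and 34.5% of all genes. NSUN4, which methylates 12S rRNA as TFB1M does, was 33.0 ± 5.95 CPM at Day 30, 23.5 ± 0.935 at Day 60 and 19.9 ± 0.893 at Day 113. It fell by 0.73 ± 0.13 from Day 30 to Day 113 (edgeR adjusted p = 0.000374), and its change to Day 60, -0.49 ± 0.14 (edgeR adjusted p = 0.0316), lost its call without Day 30 replicate 1 or 4 or any 1 of the Day 60 wells (-0.52 to -0.38). NOA1, a GTPase of ribosome assembly, fell from 54.8 ± 5.12 CPM at Day 30 to 41.6 ± 2.53 and 30.6 ± 4.47, by 0.84 ± 0.12 over the course (edgeR adjusted p = 4.2e-05). From Day 60 its change was -0.44 ± 0.12 (edgeR adjusted p = 0.0157), and without Day 60 replicate 2 it was -0.41 with no call. RPUSD4, a pseudouridine synthase of 16S rRNA, fell from 27.3 ± 1.42 CPM at Day 60 to 19.0 ± 2.32 at Day 113, by 0.52 ± 0.13 (edgeR adjusted p = 0.0086).

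METTL17 and MTG1, assembly factors of the small and the large mitochondrial subunit, went the other way. METTL17 rose from 20.1 ± 1.47 CPM at Day 30 and 20.5 ± 1.21 at Day 60 to 29.0 ± 3.58 at Day 113, by 0.53 ± 0.12 from Day 30 (edgeR adjusted p = 0.00274) and 0.50 ± 0.13 from Day 60 (edgeR adjusted p = 0.0116). MTG1 rose from 17.6 ± 1.95 and 17.1 ± 1.60 to 24.9 ± 4.07 CPM, by 0.50 ± 0.14 from Day 30 (edgeR adjusted p = 0.011) and 0.55 ± 0.15 from Day 60 (edgeR adjusted p = 0.0158). The last call was lost without Day 60 replicate 1 or 3 (0.47 to 0.54). Of 76 genes for proteins of the mitochondrial ribosome, in which the rRNAs are bound, 1 passed upward and 0 downward from Day 30 to Day 60, 14 upward and 6 downward from Day 60 to Day 113, and 23 upward and 3 downward from Day 30 to Day 113, with median log2 changes of 0.06, 0.19 and 0.18 beside -0.01, 0.00 and -0.02 over all genes. The shares called were 1.32%, 26.3% and 34.2%, beside 10.3%, 24.0% and 34.5% of all genes, so the latter pairs were near the share over all genes.

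Of 12 regulators of mitochondrial biogenesis, 0 passed from Day 30 to Day 60, 4 fell from Day 60 to Day 113 and 3 fell from Day 30 to Day 113, with none higher. These are 0.00%, 33.3% and 25.0% of the list, beside 10.3%, 24.0% and 34.5% of all genes. PPARGC1A, the coactivator PGC-1alpha, known to act with NRF1 on TFAM, was 83.0 ± 17.5 CPM at Day 30, 92.0 ± 15.3 at Day 60 and 47.8 ± 15.3 at Day 113. It fell by 0.95 ± 0.21 from Day 60 (edgeR adjusted p = 0.00484) and by 0.80 ± 0.20 from Day 30 (edgeR adjusted p = 0.00584), and the Day 113 wells lay below all others. ESRRG, a nuclear receptor that works with it in heart muscle, was 78.9 ± 5.30, 78.3 ± 15.9 and 46.3 ± 4.84 CPM, and it fell by 0.76 ± 0.13 from Day 60 (edgeR adjusted p = 0.000595) and by 0.77 ± 0.12 from Day 30 (edgeR adjusted p = 0.000144). NRF1 itself, named after its values were seen because its motif was searched, was 17.7 ± 1.35, 17.3 ± 1.17 and 17.9 ± 0.937 CPM, with log2 changes of -0.03 ± 0.13 to Day 60 and 0.01 ± 0.12 to Day 113 (edgeR adjusted p = 0.927 and 0.952). TFAM changed by 0.09 ± 0.10 over the days in which PPARGC1A fell by 0.80. The endothelial marker sum was highest at Day 113, without overlap, as given above, and the part of other cells in these falls was not tested.

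**Figure D5:**
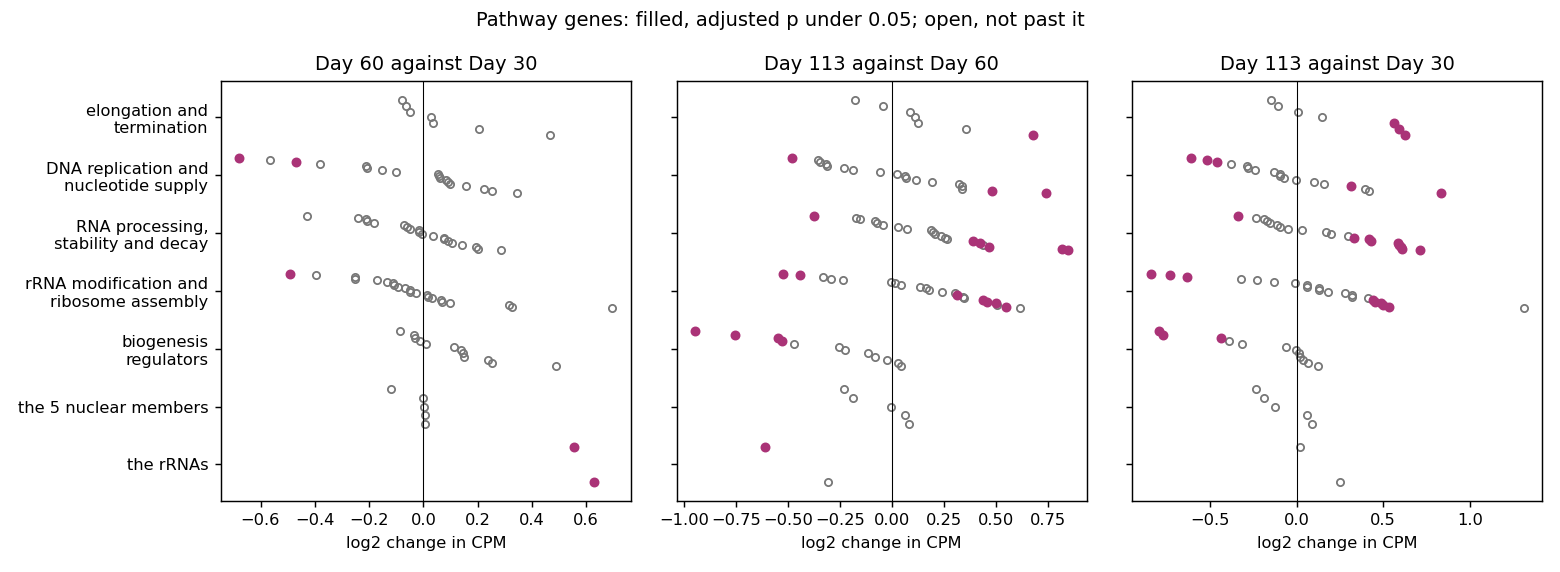
Log2 change in CPM (horizontal axes) of each gene of the 5 lists, the 5 nuclear members and the rRNAs (vertical axis) for the 3 pairs of days, filled where the adjusted p was under 0.05. For Day 60 against Day 30, 3 list genes are filled, all lower, and the biogenesis regulators that are filled lie below 0 in both other panels. Members are filled by the same rule, and nothing is read from their filling.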

How the data were processed

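Poly(A)-selected RNA of 11 wells was sequenced as paired reads of 150 bases, per the labels' protocols. The submitters' processing notes name STAR 2.5.3a, featureCounts 2.0.3 and hg38, without role or order; annotation, strand and multi-mapping settings are not given in the sources used here. The authors deposited whole-number counts per gene, which were used, and a TPM table. The deposited TPM values were not used as an alternative, because the gene length they imply differed 54.0-fold to 163-fold between libraries for the same member. Groups were taken from the titles.

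All 11 libraries were fitted together by edgeR 4.0.16 in R 4.3.3 (TMM scaling, filterByExpr with a minimum count of 10, quasi-likelihood test, 1 coefficient per day), and p-values were adjusted by Benjamini-Hochberg over all 19990 genes, none of which the filter removed, at 0.05. The fit was also run on counts simulated as independent wells from its own dispersions. The outcome is not given here, and nothing is read from it. Alternatives were RLE, upper-quartile and total-count scaling, totals without the rRNAs, DESeq2 1.42.0, limma-voom 3.58.1, robust dispersions, other filters, only the days compared, a replicate block, each well left out and a threshold of 0.01. The members and lists were chosen with earlier results of these data known. Named were the members, in each list and pair of days the 2 highest and 2 lowest changes past the threshold, other listed RNAs with 10 or more counts in every library, and the 5 genes most correlated with RNR2 and with TFAM. Counts cover sampling error only.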

Additional observations from a re-analysis of the deposited data

Results flagged for a closer look

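In 14 groups of 4 wells, 2 had a well that stood apart from the rest of its day, and chance flags about 1 in 20 such groups. TFAM in Day 113 replicate 3 was at 47.38 CPM, where the nearest other well was at 48.81 CPM and the gap was 0.902 of the range. The 4 wells lay closer together than counting error alone gives, so the gap is small in size. TFB2M in Day 113 replicate 3 was at 8.929 CPM, below the nearest well at 12.53 CPM, with a gap of 0.843 of the range, and it is the lowest value of TFB2M in the 11 libraries.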

How the results depend on the processing

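Over 22 alternatives the log2 change of RNR2 was 0.54 to 0.73 from Day 30 to Day 60 and -0.71 to -0.51 from Day 60 to Day 113. From Day 30 to Day 113 it was -0.02 to 0.08. For RNR1 the ranges in these pairs were 0.45 to 0.71, -0.46 to -0.19 and 0.09 to 0.35. The nuclear members stayed between -0.34 and 0.14. Of all genes, 2060 were called from Day 30 to Day 60, 4790 from Day 60 to Day 113, 6889 from Day 30 to Day 113 and 1868 for the difference between the intervals. At an adjusted p of 0.01 these became 937, 2545, 4552 and 618, and leaving out each well gave 1220 to 2618, 3317 to 4735, 5657 to 6977 and 643 to 2221. The 3, 21 and 28 pathway genes called in the pairs of days became 0, 6 and 16 at 0.01, and 0 to 6, 10 to 20 and 18 to 31 with each well left out. From Day 30 to Day 60 the 3 became 5 with DESeq2, 5 with a mean CPM of at least 1 and 7 with only the days compared, which also gave 13 from Day 60 to Day 113. The cause was not tested. A planned comparison with the deposited TPM values was not run, for the reason given with the processing. Lowest precision was for TFB2M, at about 5% counting error.

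With the replicate number as a block, 2474, 4954, 7143 and 2366 of all genes and 2, 21 and 34 pathway genes were called, and RNR2 changed by 0.65 and -0.63. Wells of the same number had correlations of deviations of 0.03 to 0.14 (median 0.06, 2 of 10 pairs over 0.1). For wells of different numbers these were -0.11 to 0.12 (median -0.03, 1 of 30 pairs over 0.1). Of 11 wells, 9 correlated best with a well of their own number. The main test did not use the number, and what wells of the same number shared was not tested. TWNK and NSUN4 from Day 30 to Day 60 and POLG2 from Day 60 to Day 113 lost their calls under the block.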
